A study of Homo sapiens with 6 samples.

Results

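The genes described here are 36 lysosomal enzymes, lysosomal membrane proteins and genes that sort or control them, out of 48162 genes in the count table. Each was found by its symbol, and for CLN3, whose symbol stands on more than 1 row, the row with the most counts was taken. LAPTM4A, LGMN and HGSNAT were set apart from the other 33 on their mimic and control values in these same libraries, so those values are a description and carry no test. All 6 libraries came from HEK293, an established line of human embryonic kidney cells, and all cells received Flag-tagged Ago2. In 3 libraries the cells also received miR-219 mimics and in 3 the negative control mimics, with 1 library of each kind sampled on 22 August, 5 September and 18 September. The tagged protein was captured with an antibody to the tag, and the RNA that came down with it was sequenced. A level therefore mixes the amount of a transcript in the cell with its share on Ago2, and input RNA was not used here. The labels do not say whether dates were separate cultures, so spread between libraries may be technical.

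Lysosomes are acidic organelles that break down glycans, lipids and proteins. Most soluble enzymes reach them through a mannose 6-phosphate tag that is put on in the Golgi, completed by the uncovering enzyme NAGPA and read by sorting receptors. Many lysosomal genes are transcribed under TFEB, a basic helix-loop-helix factor that binds DNA around the letters CACGTG. MicroRNA-219 is best known from oligodendrocytes and neurons, and an Argonaute protein loaded with it pairs with transcripts through the seed, bases 2 to 8 of the microRNA.

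The mature human strands of the miR-219 family are shown because the labels do not say which of them the mimic carries. The sequences are from RefSeq (GRCh38.p14), and capitals mark the seed.
hsa-miR-219a-5p: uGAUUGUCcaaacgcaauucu
hsa-miR-219a-1-3p: aGAGUUGAgucuggacgucccg
hsa-miR-219a-2-3p: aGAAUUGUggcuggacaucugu
hsa-miR-219b-5p: aGAUGUCCagccacaauucucg
These 4 strands have 4 different seeds. Transcript sequences were not used here, so no member was searched for a seed match.

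Libraries held 20233819 to 34408699 counts, and the 36 members together took 0.220 to 0.269% of them. Levels are given as normalized CPM, that is CPM of a library total scaled by TMM, a method that aligns most genes between libraries. Of the 36 members, 35 passed the filter on low counts and CLN3 did not. HEK293 markers listed for a check (such as VIM, KRT8 and NEFL) were detected in 8 of 8 cases in every library, at 1704 to 2158 normalized CPM in sum. Of 8 macrophage and leukocyte markers, cells rich in lysosomes, 3 to 5 had a count, with a sum of 1.62 to 1.95 normalized CPM. The leukocyte antigen PTPRC had at most 1 count and the macrophage antigen CD68 at most 2. CD14 and CSF1R of the same list were detected in every library, at 19 to 34 and 8 to 28 counts. Transcripts of intestine and plasma cells, over 12 genes, summed to 0.449, 14.5 and 23.7 normalized CPM with the mimic and to 44.7, 1.09 and 37.4 with the control in date order, with IGHA1 and FABP1 at 0 counts in the mimic library of 22 August and the control library of 5 September. Over 4 red cell genes the sum was 700 on 5 September in the control, and at most 0.190 elsewhere. Nearly all of the 700 was HBB, with 23319 counts in that library, where HBA1 had 336, HBA2 1 and ALAS2 0. The part of these transcripts in the members' values was not tested.

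The members were well represented in the Ago2 precipitates, by levels that do not separate amount in the cell from the share on Ago2. Over all 6 libraries, per kilobase of gene length, 29 of 35 tested members lay above the median of all tested genes and 9 above the 90th percentile. LAPTM4A, a membrane protein of late endosomes and lysosomes, had the highest level per length at 88.3 normalized CPM per kilobase, and its close relative LAPTM4B followed at 76.7. That order held in the control libraries (113 against 84.7) but not in the mimic libraries, where LAPTM4B had 68.6 and LAPTM4A 63.8. Then came GLA, the alpha-galactosidase that is lacking in Fabry disease, at 65.0, the palmitoyl-protein thioesterase PPT1 at 54.6 and the cathepsin CTSZ at 52.4. At the low end stood the transcription factor TFEB at 1.85 and IDUA, the iduronidase lacking in Hurler syndrome, at 0.385 normalized CPM per kilobase. Of 35 neighbours in this order, 31 had library ranges that overlapped, so the order is reliable only over wider steps. CLN3, a membrane protein lacking in a childhood neurodegeneration, had 2 to 18 counts per library. In the annotation its row overlaps another row of the same name and the gene NPIPL1 on the same strand, and APOBR on the other strand, so its count is uncertain.

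**Figure D1:**
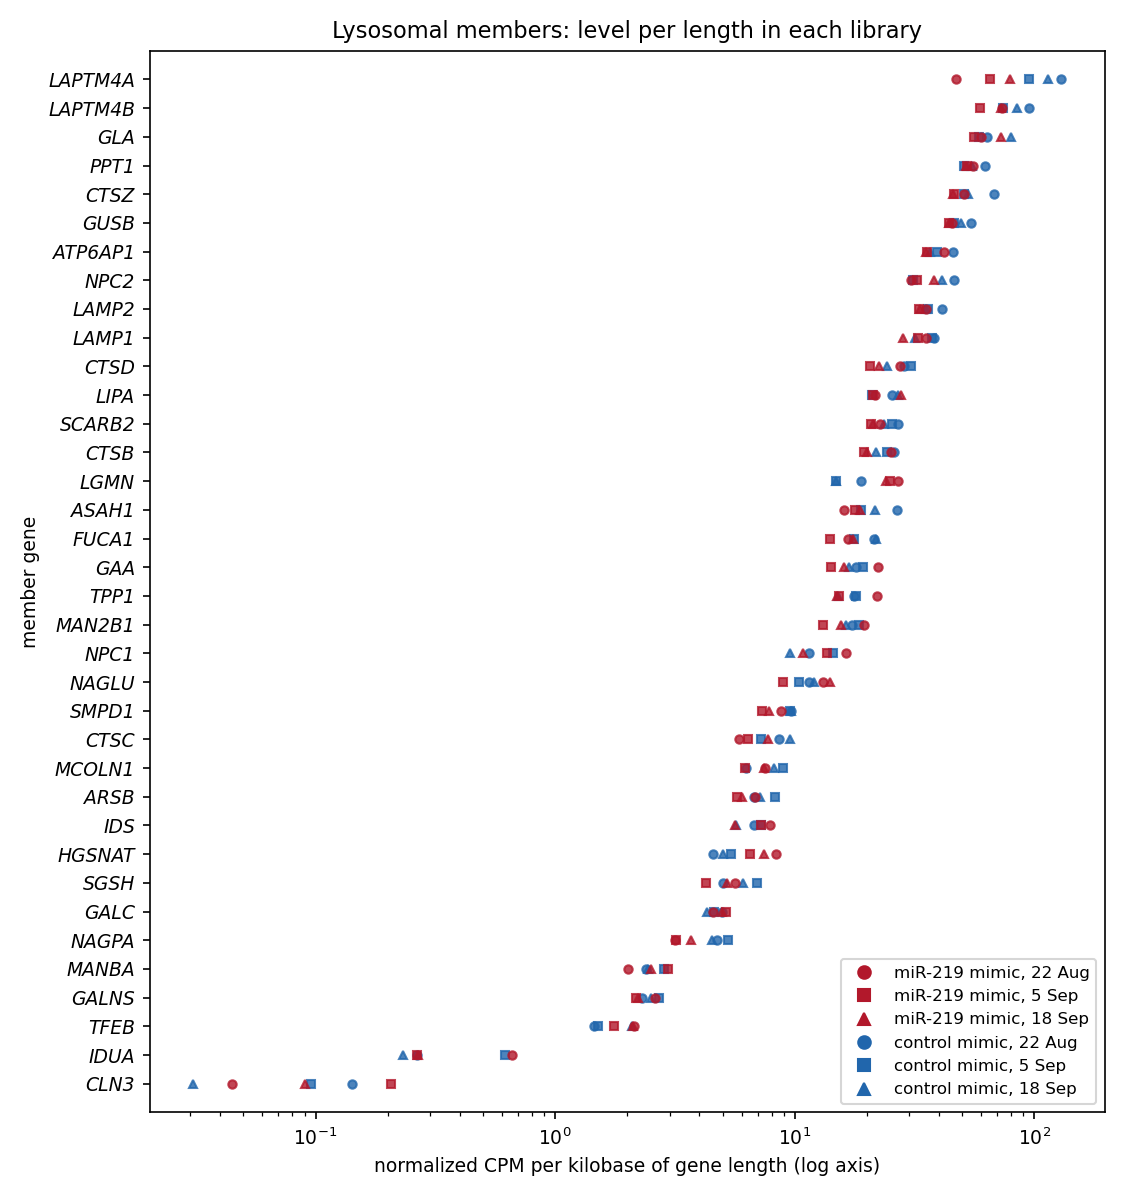
Level of each of the 36 members in each of the 6 libraries, as normalized CPM per kilobase of gene length on a log axis. Red points are mimic libraries, blue points control libraries, and shapes mark the date. Points of LAPTM4A run from 46.9 to 130 and those of most neighbours overlap.

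With the mimic, most members stood slightly lower than with the control, LAPTM4A stood lowest, and LGMN and HGSNAT stood higher. Of the 35 tested members 26 had a log2 fold change below 0 and 9 above, with a median of −0.14 against 0.00 for all 16233 tested genes. Without the mimic library of 5 September that median was −0.0889. By edgeR's quasi-likelihood test with Benjamini-Hochberg adjustment over all genes, 0 members passed as higher and 0 as lower at an adjusted p under 0.05, and across all genes 0% passed in either direction. At an unadjusted p under 0.05 there were 2 higher members, against 1.74% of all genes, and 5 lower, against 1.26% (7 in all, against 3.01%). Since LAPTM4A, LGMN and HGSNAT were chosen on this contrast, nothing is read from these shares. Without these 3, the 32 other tested members had a median of −0.14 and ran from −0.53 (NAGPA) to 0.26 (TFEB), with 25 below 0. LAPTM4A lay below and LGMN and HGSNAT above the whole range of the others. These 3 were set apart on the same values, so their position describes the choice and is not a finding. The 95% CI of 33 members lay inside a 2-fold change either way, the exceptions being LAPTM4A and the scarce IDUA.

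**Figure D2:**
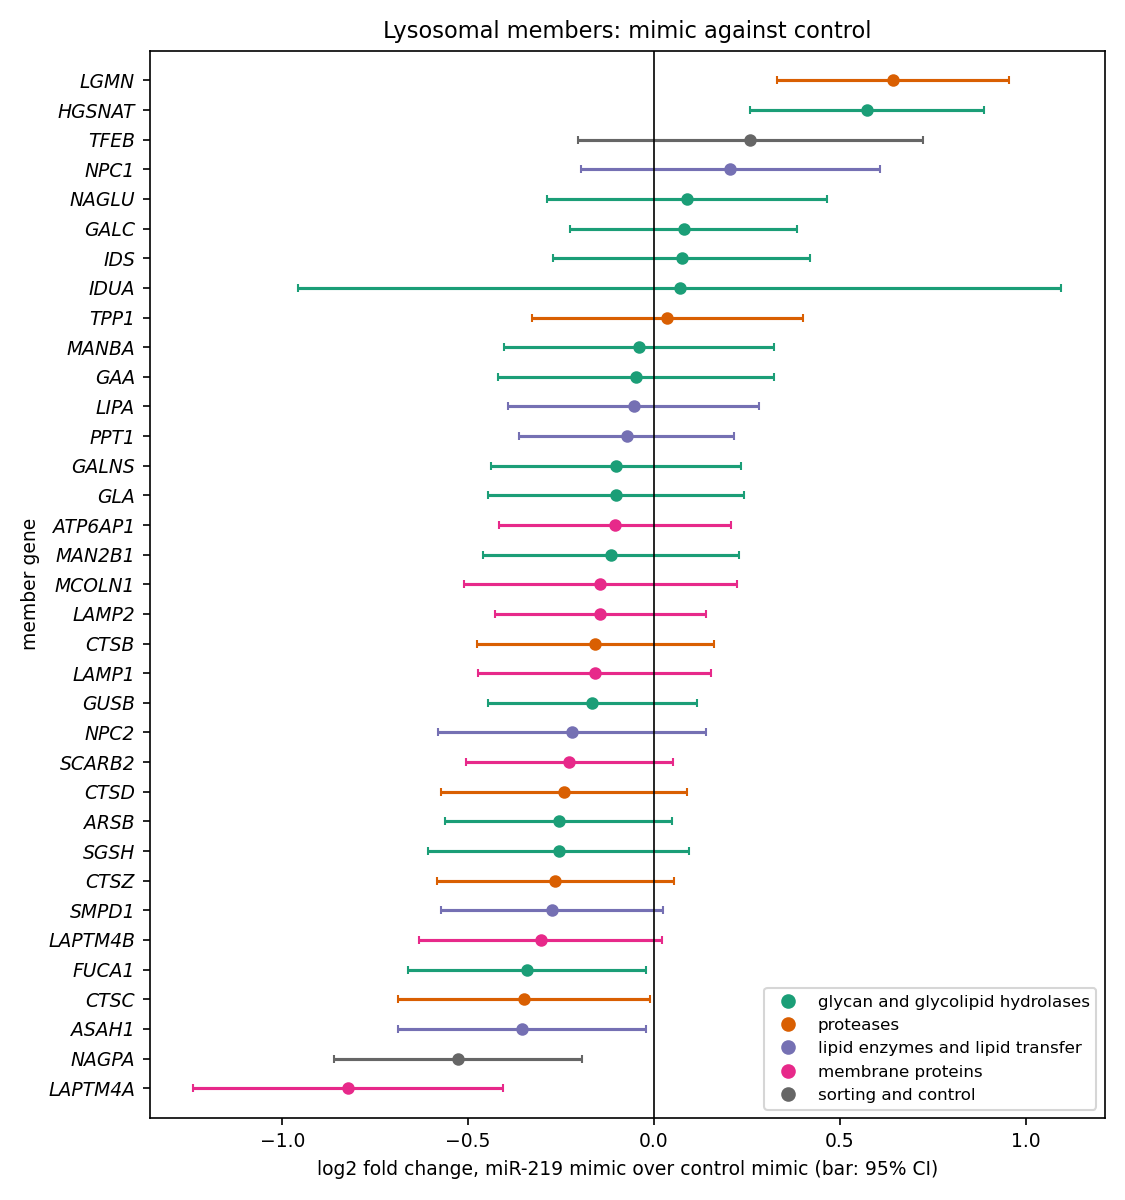
Log2 fold change of the 35 tested members, mimic over control, with its 95% CI, coloured by role and ordered by value. LAPTM4A is at −0.82, LGMN at 0.64 and HGSNAT at 0.57. Most of the other intervals include 0.

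Summed over the 36 members, the level was 2414, 2152 and 2281 normalized CPM with the mimic in date order, and 2757, 2466 and 2488 with the control. The groups did not overlap, and the mimic mean was 88.8% of the control mean (2282 ± 131 against 2570 ± 162, SD, n = 3 each). Without LAPTM4A, LGMN and HGSNAT the sum was 2231, 1950 and 2052 with the mimic, against 2464, 2239 and 2230 with the control. There the highest mimic library reached the lowest control library, and the mimic mean was 89.9% of the control mean, although the mimic library was the lower of the pair on 3 of 3 dates. LAPTM4A and LAPTM4B weighed heavily in the sum: without them the mimic mean was 92.9% of the control mean, and the groups overlapped, again with the mimic lower within 3 of 3 dates.

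All 7 tested membrane proteins stood below 0, at a median of −0.16 on the log2 scale. LAPTM4A (ENSG00000068697, chr2:20232411-20251789 of hg19, minus strand) held 2398, 3267 and 3018 counts in the mimic libraries in date order, while the control libraries held 5760, 5660 and 4236. As normalized CPM this was 82.8, 115 and 140 with the mimic, against 229, 167 and 201 with the control. All 3 mimic libraries lay below all 3 control libraries, and the gap was widest on 22 August. The log2 fold change was −0.82 (SE 0.19, 95% CI −1.24 to −0.41), a level 0.565 times that of the control. The log2 ratio within a date was −1.46 on 22 August, −0.54 on 5 September and −0.53 on 18 September. Without both libraries of 22 August the log2 fold change was −0.53. On that date mitochondrially encoded transcripts took 13.3% of the mimic library and 8.39% of the control library, against 5.66 to 7.27% in the other libraries. With these transcripts and AGO2 left out before scaling, the value for LAPTM4A was again −0.82. That refit kept the same libraries, and a link between these transcripts and the gap on 22 August was not tested.

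LAPTM4B, which lies on another chromosome, had 233, 189 and 231 normalized CPM with the mimic, against 302, 235 and 269 with the control. The groups did not overlap, and the log2 fold change was −0.31 (SE 0.15, 95% CI −0.63 to 0.02). The ratio of LAPTM4B was nearly the same on each date, at −0.37, −0.32 and −0.22 on the log2 scale. Both LAPTM4 genes were thus lower with the mimic in every library pair, LAPTM4A by more on each date. That difference between the pair was not tested.

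Among the abundant membrane glycoproteins the differences were small. LAMP2, a receptor of chaperone-mediated autophagy, had 142, 134 and 135 normalized CPM with the mimic, against 166, 145 and 143 with the control. SCARB2, which carries glucocerebrosidase to the lysosome, had 108, 99.5 and 101 with the mimic, against 128, 121 and 112 with the control. Neither overlapped between groups, at log2 fold changes of −0.14 and −0.23. MCOLN1 also overlaps PNPLA6 on the same strand. LAMP1, the standard marker of the lysosomal membrane (−0.16), the proton pump accessory subunit ATP6AP1 (−0.11) and the calcium channel MCOLN1 (−0.14) overlapped between groups.

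**Figure D3:**
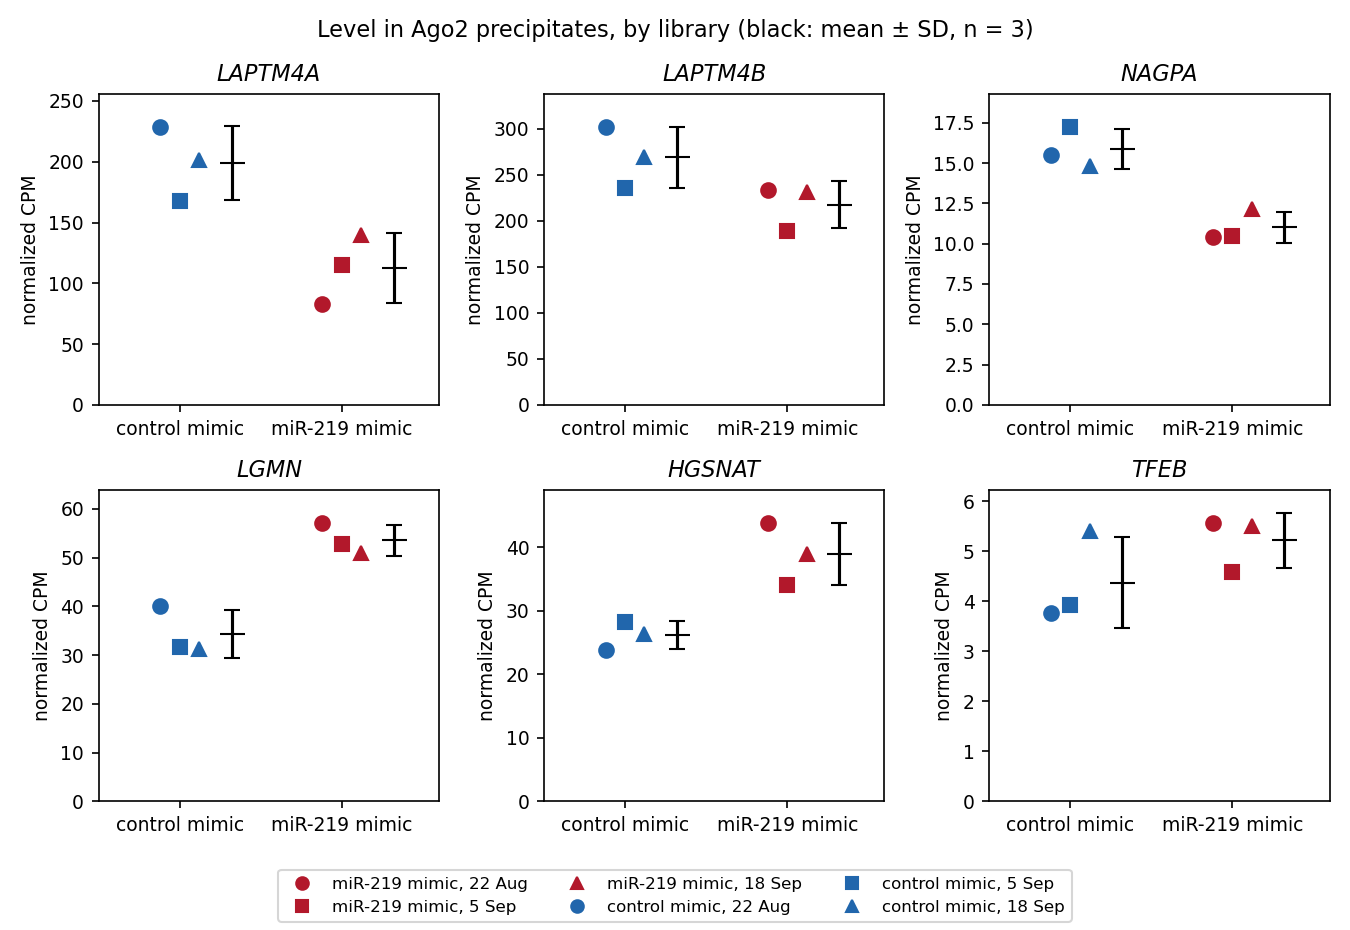
Normalized CPM in each library for 6 members, with controls in blue, mimics in red, shapes for dates, and the mean ± SD of 3 libraries in black. LAPTM4A, LAPTM4B and NAGPA are lower and LGMN and HGSNAT higher in all mimic libraries, while the TFEB points overlap.

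Proteases had log2 fold changes below 0 in 4 of 6 cases, with LGMN as the opposite extreme. LGMN encodes legumain, a protease that cuts after asparagine and that matures cathepsins. LGMN (ENSG00000100600, chr14:93170152-93215047, minus strand) had 57.0, 52.8 and 50.9 normalized CPM with the mimic, against 40.1, 31.6 and 31.3 with the control, from 660 to 1652 counts per library. No mimic library came near the control range. The log2 fold change was 0.64 (SE 0.14, 95% CI 0.33 to 0.95), a level 1.56 times that of the control, and the ratios were 0.51, 0.74 and 0.70 in date order. LGMN was the steadiest of the 3 chosen genes across dates.

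CTSC, which activates the serine proteases of granules, had 35.9, 39.1 and 47.4 normalized CPM with the mimic, against 52.7, 44.4 and 58.7 with the control. The groups of CTSC overlapped, although its ratio was below 0 on each date (log2 fold change −0.35, SE 0.16). CTSZ, a carboxypeptidase, had 76.1, 68.8 and 68.6 with the mimic, against 101, 76.3 and 79.1 with the control, groups that just failed to touch (log2 fold change −0.27, SE 0.15). The cathepsins CTSB (−0.16) and CTSD (−0.24) and the tripeptidyl peptidase TPP1 (0.04) overlapped between groups.

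Enzymes of glycan and glycolipid breakdown stood below 0 in 9 of 14 cases, with a median of −0.07 and HGSNAT as the highest. HGSNAT is a membrane enzyme that acetylates heparan sulfate with acetyl-CoA from the cytosol, a step that NAGLU needs before it can cut. HGSNAT (ENSG00000165102, chr8:42995556-43057998, plus strand) had 43.8, 34.01 and 39.0 normalized CPM with the mimic, against 23.9, 28.3 and 26.3 with the control, from 554 to 1269 counts. The groups did not overlap, and the gap was smallest on 5 September. The log2 fold change was 0.57 (SE 0.14, 95% CI 0.26 to 0.89), a level 1.49 times that of the control, with ratios of 0.88, 0.26 and 0.57 in date order.

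SGSH, NAGLU, IDS and IDUA, which also take part in heparan sulfate breakdown, did not share this position. SGSH, the sulfamidase, had 31.3, 23.8 and 29.0 normalized CPM with the mimic, against 28.0, 38.6 and 33.8 with the control (log2 fold change −0.26). NAGLU (0.09), the iduronate sulfatase IDS (0.08) and IDUA (0.07) were near 0 and overlapped between groups. IDUA had only 11 to 47 counts per library and a 95% CI of −0.96 to 1.10, so at this depth the interval reached past a 2-fold higher level.

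FUCA1, the alpha-fucosidase, had the lowest log2 fold change of the glycan enzymes, −0.34 (SE 0.15). Its levels were 34.01, 28.6 and 35.9 normalized CPM with the mimic, while the control libraries held 44.0, 35.99 and 44.8, so the groups missed each other by a narrow margin. The ratio of FUCA1 was −0.37, −0.33 and −0.32 on the 3 dates. GUSB, the beta-glucuronidase, also did not overlap, at 116, 112 and 113 with the mimic, against 139, 117 and 126 with the control (log2 fold change −0.17). The Pompe disease gene GAA (−0.05), the Fabry gene GLA (−0.10), the Krabbe gene GALC (0.08), ARSB (−0.26), GALNS (−0.10), MAN2B1 (−0.12) and MANBA (−0.04) overlapped.

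Enzymes and carriers of lipids stood below 0 in 5 of 6 cases, with a median of −0.15. ASAH1, the acid ceramidase, had 41.7, 46.6 and 48.8 normalized CPM with the mimic, against 69.3, 49.4 and 56.5 with the control. Its groups did not overlap, but most of the difference lay on 22 August, with ratios of −0.73, −0.09 and −0.21 (log2 fold change −0.35, SE 0.15). SMPD1, the acid sphingomyelinase, had 21.4, 17.9 and 19.2 with the mimic, against 23.7, 23.5 and 23.6 with the control (log2 fold change −0.28, SE 0.14). NPC1 and NPC2 hand cholesterol out of the lysosome together. NPC1 had a log2 fold change of 0.21 and NPC2 of −0.22, and both overlapped between groups. The acid lipase LIPA (−0.06) and PPT1 (−0.07) overlapped as well.

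Of the 2 genes of sorting and control, NAGPA was lower and TFEB was not separated. NAGPA had 10.4, 10.5 and 12.1 normalized CPM with the mimic, against 15.5, 17.2 and 14.8 with the control, from 262 to 583 counts per library. No library of one group entered the range of the other, and the log2 fold change was −0.53 (SE 0.15, 95% CI −0.86 to −0.20), with ratios of −0.57, −0.71 and −0.29. NAGPA overlaps ALG1 on the other strand, and the strand setting of the counting is not given in the sources used here, so reads of the pair may be mixed. TFEB had 5.56, 4.58 and 5.51 normalized CPM with the mimic, against 3.77, 3.93 and 5.41 with the control (log2 fold change 0.26, SE 0.21).

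Between groups, 2 members had all mimic libraries above all control libraries (LGMN and HGSNAT), and 10 had all of them below. Across all tested genes 4.22% lay wholly above and 3.84% wholly below, 8.06% in all. The rule used this contrast, so the counts describe the members and support nothing further. Overlap with a gene on the opposite strand that had over 10% as many counts as the member was found for 8 members: IDUA, SGSH, GALNS, LIPA, NPC1, NPC2, CLN3 and NAGPA.

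By date, the median ratio of the members was below 0 each time, but not every member kept its sign. Ratios were below 0 on all 3 dates for 16 members (45.7%, against 14.4% of all tested genes). They were above 0 on all 3 for LGMN, HGSNAT and TFEB (8.57%, against 15.6%). LAPTM4A, among the 16, and LGMN and HGSNAT were chosen on this contrast. The median over members was −0.12 on 22 August, −0.20 on 5 September and −0.12 on 18 September, where all tested genes had 0.02, 0.00 and −0.01. Of the 7 membrane proteins 6 were below 0 on every date, and MCOLN1 was the exception. For the glycan enzymes the median ratio was 0.16 on 22 August with 9 of 14 above 0, and −0.27 on 5 September with 3 of 14 above 0. Between these dates 8 of the 14 went from above to below 0, such as GAA (0.31 and −0.45), MAN2B1 (0.16 and −0.50) and SGSH (0.16 and −0.69). GALC (−0.12 and 0.16) and MANBA (−0.25 and 0.05) went the other way, and 4 kept their sign (GLA, GUSB, FUCA1 and HGSNAT). In all, 11 members were above 0 on 22 August and below 0 on 5 September (31.4%, against 29.7% of all tested genes), a share near that of all genes, and 5 the reverse (14.3%, against 27.8%). With 1 library per group and date, no test of a mimic effect that differs between dates could be made.

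**Figure D4:**
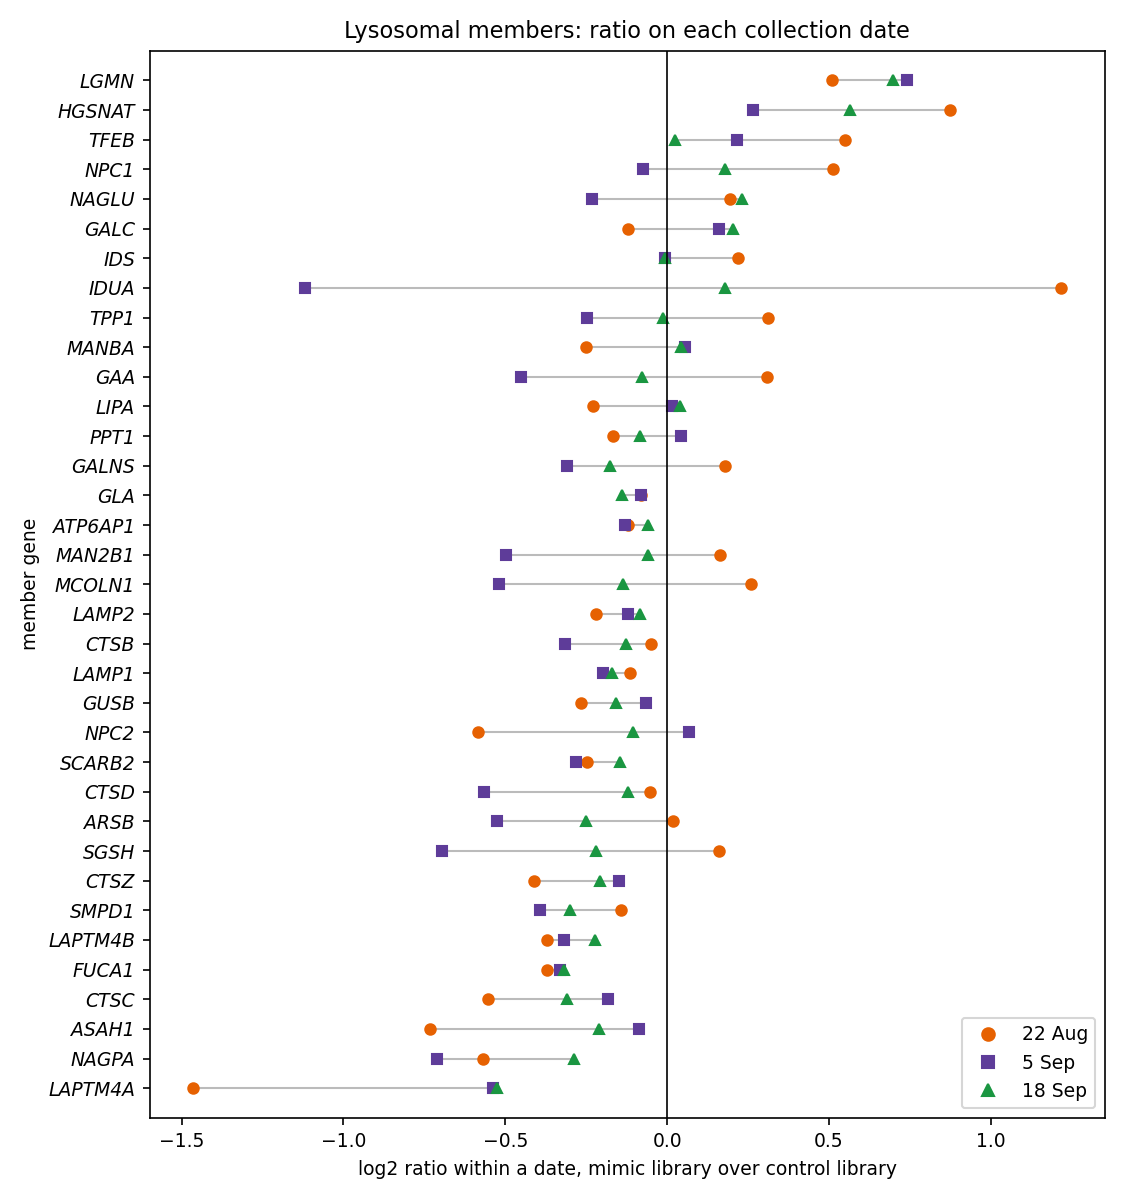
Log2 ratio of the mimic library over the control library on each date for the 35 tested members, ordered by log2 fold change, with a grey line joining the lowest and highest date. LAPTM4A reaches −1.46 on 22 August. LGMN runs from 0.51 to 0.74, LAPTM4B from −0.37 to −0.22 and FUCA1 from −0.37 to −0.32. Some members nearer to 0, such as GLA (−0.14 to −0.08), also have dates close together.

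The dates themselves were compared with mimic and date in one model, a measure that did not choose the members. By edgeR with adjustment over all genes, 0 of 35 members differed on any date (smallest adjusted p = 0.223), where 0.308% of all genes passed the overall test of date. On 22 August 0.333% of all genes passed as higher and 0.00616% as lower, on 5 September 0% both ways, and on 18 September 0% as higher and 0.0493% as lower. At an unadjusted p under 0.05, the overall test picked 3 members (8.57%), against 13.2% of all genes. These were GLA, IDS and NPC1, and for each the date farthest from the others was 18 September. Taken date by date at that threshold, 22 August had 3 higher members (4.2% of all genes) and 0 lower (2.69%). For 5 September there were 1 higher (6.89%) and 4 lower (5.98%), and for 18 September 3 higher (7.89%) and 3 lower (8.53%). GLA had 100 normalized CPM in the mean of the libraries of 18 September against 81.1 and 75.6 on the earlier dates, a log2 difference of 0.35 (SE 0.10). NPC1 had 52.5 against 71.6 and 72.2 (log2 difference −0.45, SE 0.14), and IDS had 43.2 against 56.0 and 55.1 (−0.36, SE 0.11). LAPTM4A, LGMN and HGSNAT had log2 differences between −0.15 and 0.27 on the 3 dates. DESeq2 and limma-voom also called 0 members on any date. Limma-voom called 0.333% of all genes for 22 August, 0% for 5 September and 0.0493% for 18 September. Over all genes DESeq2 called 0.63% for 22 August, 0.406% for 5 September and 1.06% for 18 September, of the genes it gave an adjusted p. The count rested on single libraries, for all genes as for the members. Without the control library of 22 August 5 members passed for 22 August (14.3%, against 8.21% of all genes), 1 for 5 September (2.86%, against 6.70%) and 10 for 18 September (28.6%, against 22.6%). Without the mimic library of 22 August 5 passed for 5 September (13.9%, against 14.2%) and 1 for 18 September (2.78%, against 7.47%). Without the mimic library of 5 September 1 passed for 18 September (2.86%, against 5.12%). Each of these fits left 1 residual degree of freedom.

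Promoters were compared for the letters CACGTG, the core of the element to which TFEB is known to bind. RefSeq promoters (GRCh38.p14, from 250 bases before to 50 bases after a start site) were matched by symbol for 27 of the 36 members. Of these, 8 (29.6%) held CACGTG, which reads the same on both strands, against 8.77% of 27305 genes with a promoter of this length and 31.9% of 69 other lysosomal genes. All 8 also held the longer TCACGTG on one of the strands, an overlapping motif that 4.49% of all genes had. A stretch from 5 of the 8 genes is shown because it carries the motif, with the gene's own strand written 5′ to 3′, CACGTG in capitals, and GRCh38.p14 coordinates.
GAA (chr17:80101530-80101575, plus strand): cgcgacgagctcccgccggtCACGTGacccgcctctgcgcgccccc
CTSD (chr11:1763949-1763994, minus strand): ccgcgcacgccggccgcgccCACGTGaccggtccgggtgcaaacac
LAMP1 (chr13:113297191-113297236, plus strand): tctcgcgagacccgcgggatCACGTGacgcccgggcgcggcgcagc
MCOLN1 (chr19:7522590-7522635, plus strand): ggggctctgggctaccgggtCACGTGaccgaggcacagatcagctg
NAGPA (chr16:5033930-5033975, minus strand): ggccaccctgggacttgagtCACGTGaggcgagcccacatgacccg
GAA, LAMP1 and MCOLN1 held further matches that are not shown. The other 3 genes were ARSB, GALNS and CLN3. A match is a run of letters, not a site shown to be bound.

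The promoter of LAPTM4A was among the 27 and held no CACGTG, and LGMN and HGSNAT were not among them. Among tested members, the 7 with CACGTG had a median of −0.16 on the log2 scale and 7 of 7 below 0, and the 19 without it had −0.11, with 13 of 19 below 0. On 5 September the ratios of the 7 ran from −0.71 to −0.20 with a median of −0.52, and those of the 19 from −1.12 to 0.22 with a median of −0.13. On 22 August the 7 had a median of 0.02 and the 19 had −0.14, and on 18 September −0.17 and −0.08. The difference between members with and without the motif was not tested.

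A wider list of 91 other lysosomal genes was set beside the members. It was written with earlier results of these data known, and 88 of its genes were tested. By edgeR 0 were higher and 0 lower after adjustment over all genes, where 0% of all genes passed in either direction. At an unadjusted p of less than 0.05 there were 1 above 0, against 1.74% of all genes, and 5 below 0, against 1.26%. Their median log2 fold change was −0.11 with 60 of 88 below 0. Hydrolases and their activators had a median of −0.15 with 23 of 28 below 0, and subunits of the proton pump −0.15 with 14 of 16 below 0, although on 5 September 9 of these 16 had ratios above 0 (median 0.01). The mannose 6-phosphate tagging genes and receptors (−0.01, 4 of 8 below 0), the nutrient sensing genes and transcription factors (−0.01, 9 of 17 below 0) and the other membrane proteins and transporters (−0.03, 10 of 19 below 0) were close to the median of all genes.

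NEU1, the lysosomal sialidase, had 79.1, 71.2 and 76.1 normalized CPM with the mimic, against 127, 120 and 119 with the control. The groups did not overlap (log2 fold change −0.69, SE 0.13, edgeR adjusted p = 0.999), and DESeq2 called NEU1 lower (adjusted p = 0.00406). DESeq2 called 0.00698% of genes higher and 0.0105% lower. NEU1 was named for its low p, from a list written with earlier results known, so nothing is read from its call. On the higher side ATP6V0A1, a membrane subunit of the proton pump, had 85.8, 64.3 and 58.3 with the mimic, against 43.9, 53.7 and 46.3 with the control (log2 fold change 0.53, SE 0.17). PLBD2, a phospholipase-like protein, had 0.38 (SE 0.28) and overlapped between groups.

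DESeq2 without a block called 0 of the 36 members either way (2 above and 6 below 0 at an unadjusted p of less than 0.05, where 1.59% of all genes passed), and limma-voom called 0 (2 above and 5 below 0, where 2.95% passed). With the date as a replicate block DESeq2 called 1 member higher (LGMN) and 1 lower (LAPTM4A), both set apart on this same contrast, so nothing is read from the calls. That fit gave an adjusted p to 15879 genes and called 0.0252% of them higher and 0.0441% lower. With the block edgeR called 0 members, with 2 above and 8 below 0 at an unadjusted p of less than 0.05, where 5.75% of all genes passed.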

How the data were processed

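RNA from Flag-Ago2 precipitates of HEK293 cells was sequenced in 6 libraries, 3 per group. The deposited table gives raw counts per gene. The submitters' processing notes name hg19, STAR 2.5, HTSeq 0.6.1 and DESeq2. Strand setting and the making of the deposited gene length are not given in the sources used here. Each library's column was matched by its name, with 0 left over.

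Counts were fitted over all genes in R 4.3.3 with the quasi-likelihood test of edgeR 4.0.16 (TMM, filterByExpr with min.count 10 and min.total.count 15; 16233 genes tested, threshold 0.05). Standard errors were derived from the fold change and its F statistic. Ratios within a date used a prior count of 2. DESeq2 1.42.0 and limma 3.58.1 gave alternatives, and Python 3.11.15 the sequence searches and figures. The code was tested on simulated data.

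Titles give each pair of libraries a shared date, so the date can serve as a block. The main mimic contrast was fitted without it, so its SE, CI and p leave out the pairing by date. The date was a term in the comparison of dates and in the alternatives that name a block. With the block in edgeR, the SE was 0.11 in place of 0.14 for LGMN and again 0.19 for LAPTM4A. Deviations from group means correlated at 0.0466, 0.154 and 0.513 within dates and at −0.40 to 0.24 between dates, so the block rests on the labels. No 2 libraries agreed within sampling noise.

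Members and lists were chosen with earlier results of these data known. Values were given in full for LAPTM4A, LGMN and HGSNAT, the extremes of each role, members that stood apart by date, and the lowest p of the wider list, of which 1 gene is not reported here. Further members were named after their values were seen, for groups that did not overlap. For the wider list, CTSL and GLMP were matched by gene ID.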

Additional observations from a re-analysis of the deposited data

How the results depend on the processing

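With 3 libraries per group, 1 per date, differences well under 2-fold were within the error of most members, and binding could not be told from amount. Over 16 alternatives, LAPTM4A stayed between −1.01 and −0.53 (log2), LGMN between 0.58 and 0.77 and HGSNAT between 0.42 and 0.72. The causes of the following changes were not tested. Without a filter on low counts 1 member was called lower (LAPTM4A, −0.83) and 2 of the other lysosomal genes, NEU1 among them, where 0.0209% of all genes were called higher and 0.0489% lower. DESeq2 called 2 of the other lysosomal genes lower, and DESeq2 with the replicate block called 1 member higher (LGMN, 0.64), 1 lower (LAPTM4A, −0.85), both chosen on this contrast, and the same number, 2, of the others. The replicate block in edgeR called 0 members, and the median over members was −0.13. That median ran from −0.19 to −0.0889 with 1 library left out, the latter without the mimic library of 5 September, and was −0.0984 without both libraries of 5 September, an alternative chosen after seeing the data. Members called between dates ranged from 0 to 5 for 22 August, 0 to 5 for 5 September and 0 to 10 for 18 September with 1 library left out, where up to 8.21%, 14.2% and 22.6% of all genes passed.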
